A study of Mus musculus with 30 samples.

Results

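The tumour necrosis factor (TNF) superfamily ligands described here are 10 genes of 23420 in the deposited expression tables: Tnf, Lta, Ltb, Tnfsf8, Tnfsf10, Tnfsf11, Tnfsf14, Fasl, Cd40lg and Cd70. They were chosen by name, as ligands of one protein family that helper T cells can make, and not by a cut on their values. Earlier results of these data were known when the choice was made. Their transcripts were measured by RNA-seq in 30 libraries of mouse helper T cells, 3 libraries in each of 10 groups. The study compared cells that switched on an interleukin 10 (IL-10) reporter with cells of the same culture that did not. IL-10 dampens inflammation and immune activation.

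All cells came from C57BL/6 mice carrying 2 reporters, GFP for Foxp3 and Thy1.1 for IL-10. Naive CD4+ T cells lacking GFP were stimulated with soluble anti-CD3 at 2.5 ug/ml beside irradiated splenocytes without CD4 T cells, with 6 such feeder cells for each T cell. Cytokines, with doses in ng/ml, set the culture. Th1 cells got IL-12 (20) and Th2 cells IL-4 (20). Th17 cells of the non-pathogenic kind got TGF-beta 1 (2) with IL-6 (25). Those of the pathogenic kind (pTh17) got IL-6 (25) with IL-23 (20) and IL-1 beta (20). Tr1 cells, a regulatory type, got IL-27 (25). At 72 h the cells of each culture that had IL-10 reporter signal and those that lacked it were sorted, all of them live, positive for the T cell receptor and CD4, and GFP negative. From each sort 2000 cells were lysed for each library. The labels call both compartments Thy1.1 positive, and the groups here follow the titles. They do not say whether replicates came from separate animals or cultures, so every p-value measures the spread between these libraries only.

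TNF superfamily ligands are membrane proteins that assemble as trimers and engage receptors of the TNF receptor superfamily on neighbouring cells; some are also cut from the surface and act as soluble cytokines. The receptors signal through TRAF adaptors to NF-kappa B or, where they carry a death domain, through FADD and caspase 8 to apoptosis. In helper T cells these ligands carry several known tasks. TNF and the lymphotoxins act in inflammation and lymphoid tissue, FasL and TRAIL (Tnfsf10) in killing, and CD40 ligand in help to B cells. RANKL (Tnfsf11) acts in bone and lymph node formation, and LIGHT (Tnfsf14), CD30 ligand (Tnfsf8) and CD70 act in costimulation.

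Several of these genes are neighbours in the genome. In GRCm38.p6, the assembly of the mm10 build, Ltb (plus strand), Tnf (minus) and Lta (minus) lie within 11.1 kb of chromosome 17, at chr17:35194507-35205578. Cd70 and Tnfsf14 lie within 48.2 kb of the same chromosome, beside a further ligand, Tnfsf9, and these 3 genes span 88.9 kb. Fasl is on chromosome 1, Tnfsf10 on 3, Tnfsf8 on 4, Tnfsf11 on 14 and Cd40lg on X. Libraries of this type do not mark strand, and the overlapping annotated genes are the microRNA genes Mir6974 in Lta and Mir6973a in Ltb.

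The 250 bases before the annotated start are shown for 4 members that differ in where they were highest: Tnf and Ltb as neighbours with unlike patterns, Tnfsf14 as the ligand of pTh17 and Th2 cells, and Fasl as that of Th1 cells. The sequences are from RefSeq (GRCm38.p6), written 5′ to 3′ on the gene's strand. Capitals mark GGAAA or its reverse complement TTTCC, the core letters bound by NFAT and part of many NF-kappa B sites. The windows are chr17:35202008-35202257 (minus strand) for Tnf, chr17:35194257-35194506 (plus) for Ltb, chr17:57194182-57194431 (minus) for Tnfsf14 and chr1:161788496-161788745 (minus) for Fasl.
Tnf: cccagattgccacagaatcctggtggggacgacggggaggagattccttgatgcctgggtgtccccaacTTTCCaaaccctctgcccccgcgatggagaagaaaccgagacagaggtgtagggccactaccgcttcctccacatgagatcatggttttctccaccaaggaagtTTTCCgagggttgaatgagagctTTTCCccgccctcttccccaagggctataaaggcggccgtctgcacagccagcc
Ltb: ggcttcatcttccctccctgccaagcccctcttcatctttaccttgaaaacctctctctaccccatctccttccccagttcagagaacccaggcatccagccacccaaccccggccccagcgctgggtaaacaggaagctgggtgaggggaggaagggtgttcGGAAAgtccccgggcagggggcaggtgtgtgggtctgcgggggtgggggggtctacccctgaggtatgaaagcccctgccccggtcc
Tnfsf14: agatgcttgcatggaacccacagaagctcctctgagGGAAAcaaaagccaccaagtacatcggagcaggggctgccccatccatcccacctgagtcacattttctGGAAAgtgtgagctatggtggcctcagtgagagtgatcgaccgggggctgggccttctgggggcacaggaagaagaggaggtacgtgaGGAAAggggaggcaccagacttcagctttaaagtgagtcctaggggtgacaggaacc
Fasl: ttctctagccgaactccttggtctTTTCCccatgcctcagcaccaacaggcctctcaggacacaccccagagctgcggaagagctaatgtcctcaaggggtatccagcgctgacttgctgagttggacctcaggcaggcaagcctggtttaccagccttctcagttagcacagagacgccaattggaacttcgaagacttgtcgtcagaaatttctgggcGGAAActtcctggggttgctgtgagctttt

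The motif GGAAA, searched on both strands, matched 3 times in the Tnf window, 3 times in Tnfsf14, 2 times in Fasl and 1 time in Ltb. Of 32851 windows of this length in the RefSeq table, 55.6% held at least 1 match, 21.4% at least 2 and 6.39% at least 3. The looser NF-kappa B pattern of GGG, any 5 bases and CC matched 4 times each in Ltb and Tnfsf14, where 4.97% of all windows held at least 4 matches. It matched 1 time each in Tnf and Fasl, where 45.8% of windows held any match. The Ltb matches overlap: 3 of them start at consecutive bases, and the match 87 bases before the start shares letters with GGAAA. In Tnfsf14 the matches 183 and 182 bases before the start also overlap. The AP-1 pattern TGANTCA, held by 6.75% of windows, was found in Tnfsf14 (160 bases before the start). GAAA repeated after any 2 bases, the core of interferon response elements (2.98% of windows), was not found in these 4. TATAAA, held by 12.4% of windows, stood 29 bases before the Tnf start and was absent from the windows of Ltb, Tnfsf14 and Fasl. These matches describe letters and not binding.

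Libraries held 4394704 to 11850597 expected counts in total, and replicates of a group correlated at 0.971 to 0.992 (Pearson's r of log2 CPM across genes, which are not independent). The sort was visible in Il10 itself, the gene behind the reporter. It averaged 6.06 ± 0.15 higher on the log2 scale in IL-10 positive than in negative cells of Th1 cultures (SE), 3.62 ± 0.11 in Th2, 3.80 ± 0.24 in Th17, 6.03 ± 0.23 in pTh17 and 6.47 ± 0.29 in Tr1. The level of Il10 also differed between cultures. Th2 IL-10 negative cells averaged 66.2 CPM of Il10, above the IL-10 positive cells of Th17 (23.5 CPM), pTh17 (51.6 CPM) and Tr1 (47.4 CPM). The names of the compartments thus rank Il10 within a culture and not across cultures. All 8 T cell markers, Cd3e and Cd4 among them, had counts in every group.

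Levels are given in TPM, the transcript abundance scaled for gene length and depth that the authors deposited, so that members can be set against each other. Ltb, which encodes the membrane-anchoring subunit of lymphotoxin, made up most of the ligand transcripts. It took 93.7% ± 0.083 of the summed TPM of the 10 ligands in Tr1 IL-10 positive cells (SD, n = 3) and 50.8% ± 2.59 in Th2 IL-10 negative cells, the highest and lowest of the group means. Among the other 9 ligands the leading gene varied. Cd40lg led in both pTh17 and both Th2 groups and in Th1 IL-10 positive cells. Tnfsf8 led in both Tr1 groups and in the IL-10 negative Th1 and Th17 groups, and Lta led in Th17 IL-10 positive cells. Without Ltb the ligands summed to 82.9 ± 4.27 TPM in Tr1 IL-10 positive cells and 160 ± 8.26 TPM in Tr1 IL-10 negative cells. In pTh17 the same sums were 232 ± 13.7 TPM in IL-10 positive and 220 ± 3.13 TPM in IL-10 negative cells.

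**Figure D1:**
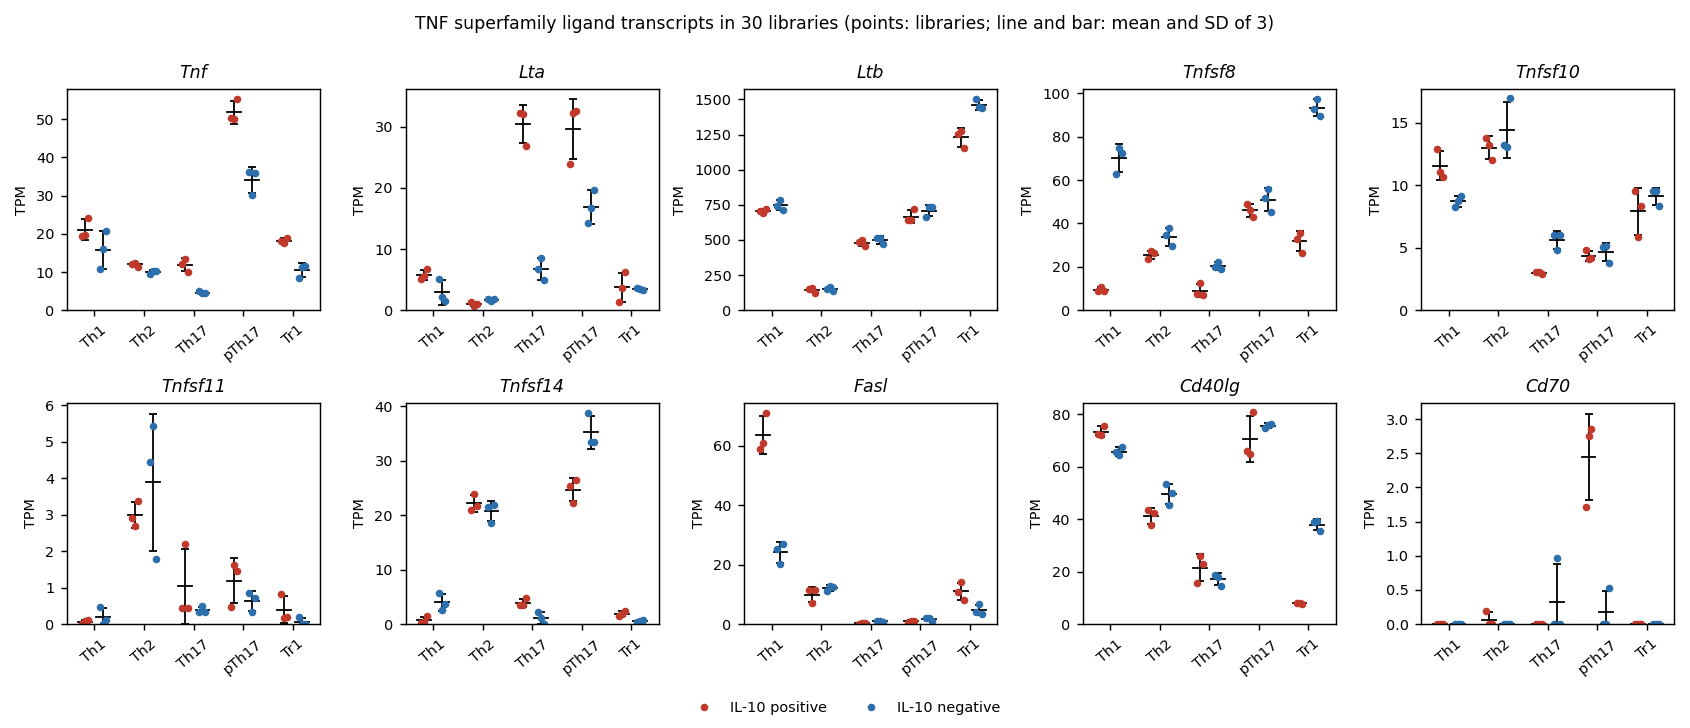
Level of each of the 10 ligand genes in TPM (y axis, linear, own scale per panel) in the 5 cultures (x axis), IL-10 positive cells in red at the left of each pair and IL-10 negative cells in blue at the right. Points are the 3 libraries of a group, and lines and bars are their mean and SD. Fasl stands highest in Th1 IL-10 positive cells (58.8 to 70.8 TPM), Tnf in pTh17 IL-10 positive cells (49.9 to 55.3 TPM) and Ltb in Tr1 cells of both compartments (1155.7 to 1504.6 TPM).

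Each ligand had its own order over the groups. The highest group mean was 11.2 times the lowest for Tnf, 10.2 times for Ltb, 10.3 times for Tnfsf8, 9.52 times for Cd40lg and 4.82 times for Tnfsf10. The ratio was 29.7 for Lta, 58.7 for Tnfsf14, 64.8 for Tnfsf11 and 254 for Fasl, whose lowest groups held few counts. Cd70 had no count in 6 groups. For 8 of 10 members the highest group was the same when CPM, which is not scaled for length, replaced TPM. The exceptions were Lta and Cd40lg, whose leading groups overlapped. In CPM, Lta was highest in pTh17 rather than Th17 IL-10 positive cells, and Cd40lg in Th1 IL-10 positive rather than pTh17 IL-10 negative cells.

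Differences were tested with edgeR's quasi-likelihood test on the expected counts, fitted once over the 12611 genes that passed a filter on low counts, with Benjamini-Hochberg adjustment; a gene was called at an adjusted p below 0.05. Of the 10 ligands, 9 passed the filter and Cd70 did not. Between IL-10 positive and negative Th1 cells, 4 ligands were called higher and 2 lower, where 23.5% of all tested genes were called higher and 20.4% lower. In Th2 cells 0 ligands were called higher and 1 lower, against 12.3% and 9.49% of all genes. In Th17 cells 4 were higher and 3 lower, against 29.2% and 28.9%. In pTh17 cells 2 were higher and 1 lower, against 10.1% and 8.33%, and in Tr1 cells 3 were higher and 3 lower, against 20.5% and 14.2%. The median log2 fold change of the 9 tested ligands was 0.19 in Th1, -0.27 in Th2, 0.46 in Th17, -0.17 in pTh17 and 0.21 in Tr1, beside medians of -0.02, 0.01, -0.04, 0.00 and 0.05 over all tested genes. Of the 23 calls within a culture, 12 held without each of the 30 libraries and under every other setting tried, and the others are named with their member below.

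**Figure D2:**
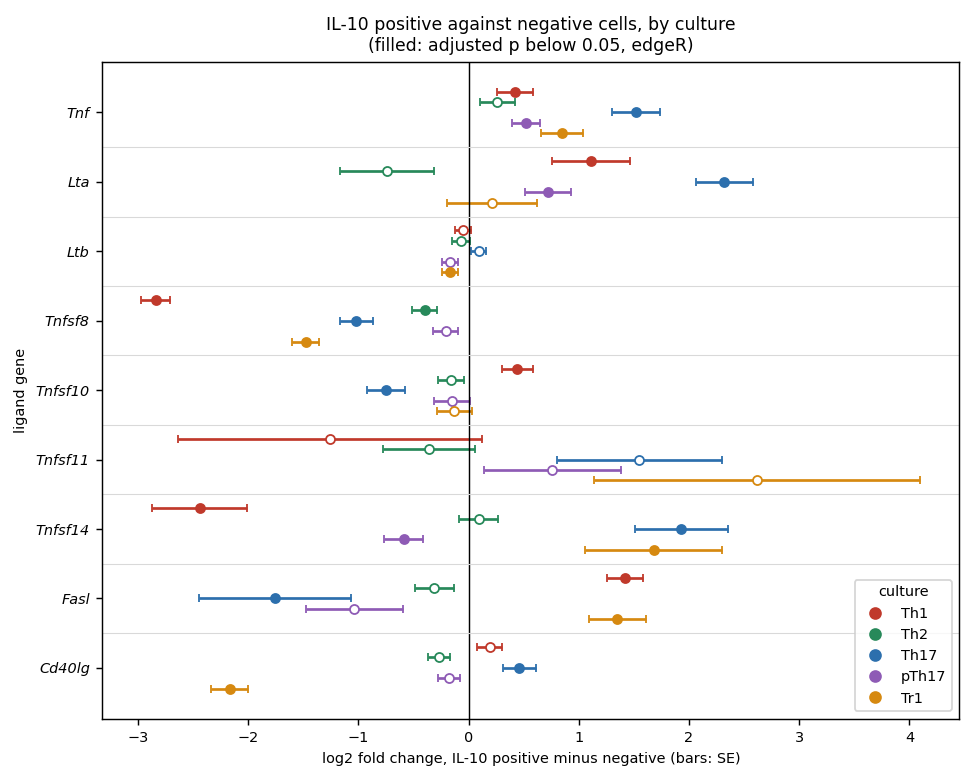
Log2 fold change of IL-10 positive minus negative cells (x axis) for 9 ligand genes (y axis), with the standard error as a bar and 1 colour for each of the 5 cultures. Filled points have an adjusted p below 0.05 in edgeR's quasi-likelihood test. Tnfsf8 lies left of 0 in all 5 cultures and Tnf right of 0, while Tnfsf14, Fasl and Cd40lg have called points on both sides.

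Tnf encodes the founding cytokine of the family. Its transcripts were higher in the IL-10 positive cells of 4 cultures, with the largest fold in Th17. Th17 libraries had 12.2, 13.4 and 10.1 TPM in IL-10 positive cells, against 5.06, 4.38 and 4.39 TPM in IL-10 negative cells. Every positive library lay above every negative one, and the log2 fold change was 1.52 ± 0.22 (SE; edgeR adjusted p = 1.93e-07). As in any bulk sample, more cells that make a transcript and more transcript per cell cannot be told apart here.

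In Tr1 cultures Tnf stood at 18, 17.6 and 19.0 TPM in IL-10 positive cells, against 8.39, 11.4 and 11.6 TPM in IL-10 negative cells, again without overlap. That log2 fold change was 0.85 ± 0.19 (edgeR adjusted p = 0.0005). The highest Tnf levels of the study were those of pTh17, with 50.3, 49.9 and 55.3 TPM in IL-10 positive and 36.1, 30.2 and 36.0 TPM in IL-10 negative cells. The pTh17 compartments did not overlap and differed by a log2 fold change of 0.52 ± 0.13 (edgeR adjusted p = 0.00422). Without IL-10 negative replicate 14 the adjusted p was 0.0511.

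Th1 libraries overlapped, at 19.5, 19.6 and 24.2 TPM in IL-10 positive and 10.7, 15.9 and 20.8 TPM in IL-10 negative cells. The call there (0.42 ± 0.16, edgeR adjusted p = 0.0275) was lost without IL-10 negative replicate 4 (adjusted p = 0.223) or 5 (adjusted p = 0.079), without IL-10 positive replicate 6 (adjusted p = 0.0893), and in a fit of the 6 Th1 libraries alone (adjusted p = 0.0706). In Th2 cells Tnf averaged 12 TPM in IL-10 positive and 10 TPM in IL-10 negative cells and was not called (0.26 ± 0.16, adjusted p = 0.281). Summed over their list, markers of myeloid and dendritic cells, which can also make TNF, were higher in IL-10 positive cells of all 5 cultures. That included Th2, where Tnf was not called. The summed level was 246.1 to 262.3 CPM in IL-10 positive and 77.9 to 81.6 CPM in IL-10 negative Th1 cells, and 98 to 100.8 CPM in IL-10 positive and 48.6 to 65.0 CPM in IL-10 negative Th17 cells. It was 111.6 to 129.1 CPM in IL-10 positive and 94.5 to 103.0 CPM in IL-10 negative pTh17 cells, and 74.9 to 79.7 CPM in IL-10 positive and 54.0 to 56.3 CPM in IL-10 negative Tr1 cells. In Th2 cells it was 177.8 to 189.1 CPM in IL-10 positive and 106.7 to 126.5 CPM in IL-10 negative libraries. Most of these sums was Cst3 (179.5 CPM in IL-10 positive and 59.8 CPM in IL-10 negative Th1 cells). In Th1 cells Itgam stood at 69.1 CPM in IL-10 positive and 19.1 CPM in IL-10 negative cells, and Itgax at 2.9 CPM in IL-10 positive and 0.334 CPM in IL-10 negative cells. In pTh17 cells Flt3 stood at 7.17 CPM in IL-10 positive and 0.24 CPM in IL-10 negative cells, Fcer1g at 3.12 CPM in IL-10 positive and 0.0434 CPM in IL-10 negative cells, and Tyrobp at 2.97 CPM in IL-10 positive and 0.206 CPM in IL-10 negative cells. Other markers of the list went the other way. In pTh17 cells Itgam stood at 5.08 CPM in IL-10 positive and 6.01 CPM in IL-10 negative cells. In Th17 cells it stood at 1.04 CPM in IL-10 positive and 2.77 CPM in IL-10 negative cells, and Mpeg1 at 0.0311 and 0.369 CPM. Csf1r and Cd14 stayed at or under 0.712 CPM in all 10 groups, and Lyz2 was at 0 in 5 of them and at most 2.82 CPM. The part of other cells in the Tnf result was not tested.

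Lta encodes the soluble lymphotoxin subunit and lies next to Tnf. It was higher in IL-10 positive cells of Th17, pTh17 and Th1 cultures. In Th17 cultures it stood at 32.3, 32.1 and 26.8 TPM in IL-10 positive cells, against 6.82, 8.48 and 4.93 TPM in IL-10 negative cells. These groups were far apart, with a log2 fold change of 2.32 ± 0.26 (edgeR adjusted p = 5.36e-10), and the call held without each library.

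In pTh17 cultures Lta stood at 23.9, 32.2 and 32.6 TPM in IL-10 positive and 14.2, 16.8 and 19.7 TPM in IL-10 negative cells. The libraries did not overlap (0.72 ± 0.21, edgeR adjusted p = 0.0134). The call was lost without IL-10 negative replicate 13 or 14 (adjusted p = 0.0777 and 0.0536) or IL-10 positive replicate 14 or 15 (adjusted p = 0.0629 and 0.0618). Th1 levels were lower, at 5.15, 5.6 and 6.71 TPM in IL-10 positive and 5.19, 2.11 and 1.47 TPM in IL-10 negative cells, so that 1 negative library reached the positive ones in TPM. The Th1 log2 fold change was 1.11 ± 0.35 (edgeR adjusted p = 0.00838). It was 1.75 without IL-10 negative replicate 4, and the call was lost without IL-10 negative replicate 5 (adjusted p = 0.055) or 6 (adjusted p = 0.107). In Tr1 cells the IL-10 positive libraries spread from 1.38 to 6.22 TPM around negative libraries at 3.36 to 3.62 TPM, and in Th2 cells the means were 1.02 TPM in IL-10 positive and 1.70 TPM in IL-10 negative cells. Neither difference was called (0.21 ± 0.41, adjusted p = 0.73, and -0.74 ± 0.43, adjusted p = 0.239).

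B cells also make lymphotoxin, and the summed B cell markers were higher in the compartments where Lta was. They stood at 20.9 to 25.2 CPM in IL-10 positive and 7.54 to 10.3 CPM in IL-10 negative Th17 cells, and at 46.1 to 57.1 CPM in IL-10 positive and 17.6 to 22.5 CPM in IL-10 negative Th1 cells. In pTh17 cells they stood at 237.6 to 322.2 CPM in IL-10 positive and 111.8 to 122.2 CPM in IL-10 negative libraries. In Th2 cells, where Lta was not called, they stood at 49.5 to 66.1 CPM in IL-10 positive and 42.4 to 46.0 CPM in IL-10 negative libraries. The part of B cells in the Lta result was not tested.

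Ltb, the third gene of the locus, was the most abundant member and differed little between compartments. Its means were 706 TPM in IL-10 positive and 748 TPM in IL-10 negative Th1 cells, and 144 TPM in IL-10 positive and 151 TPM in IL-10 negative Th2 cells. They were 479 TPM in IL-10 positive and 499 TPM in IL-10 negative Th17 cells, and 667 TPM in IL-10 positive and 710 TPM in IL-10 negative pTh17 cells. None of these was called, with log2 fold changes between -0.17 and 0.09. In Th17 cells TPM and CPM ran in opposite directions: in CPM, Ltb averaged 234.8 CPM in IL-10 positive and 220.9 CPM in IL-10 negative cells. In Tr1 cells Ltb stood at 1256.6, 1276.2 and 1155.7 TPM in IL-10 positive and 1504.6, 1444.0 and 1439.0 TPM in IL-10 negative cells. The Tr1 groups did not overlap, and the log2 fold change of -0.17 ± 0.07 was at the limit of the test (edgeR adjusted p = 0.0496). That call was lost without any 1 of 17 of the 30 libraries, Tr1 replicates 16 and 18 of both compartments among them, with adjusted p over the 30 fits from 0.0242 to 0.175, and with median-of-ratios size factors, thinned counts or DESeq2.

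Tnfsf8 encodes CD30 ligand, which engages the receptor CD30 on activated lymphocytes. It was lower in the IL-10 positive cells of 4 cultures, and the difference ran from 7.15-fold in Th1 to 1.32-fold in Th2. In Th1 cultures it had 9.03, 10.8 and 8.80 TPM in IL-10 positive cells, against 62.7, 75.0 and 72.4 TPM in IL-10 negative cells. The 2 compartments were separated by a wide gap (-2.84 ± 0.13, edgeR adjusted p = 2.17e-20).

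Tr1 cells had 33.0, 35.7 and 26.6 TPM of Tnfsf8 in the IL-10 positive and 93.0, 97.4 and 89.7 TPM in the IL-10 negative compartment. The IL-10 negative Tr1 libraries held the highest levels of the gene in any group. There the log2 fold change was -1.48 ± 0.12 (edgeR adjusted p = 9.74e-13). Th17 libraries had 7.58, 12.5 and 7.02 TPM in IL-10 positive and 19.9, 22.4 and 18.8 TPM in IL-10 negative cells, also without overlap (-1.02 ± 0.15, adjusted p = 2.57e-07). These 3 calls held without each of the 30 libraries and under every other setting.

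In Th2 cells Tnfsf8 had 23.6, 27.1 and 26.3 TPM in IL-10 positive and 34.5, 37.8 and 29.5 TPM in IL-10 negative libraries. The groups did not overlap, but the difference was small (-0.40 ± 0.11, edgeR adjusted p = 0.00796) and the call was lost without IL-10 positive replicate 7 (adjusted p = 0.0604) or IL-10 negative replicate 8 (adjusted p = 0.0573). In pTh17 cells the compartments overlapped, at 42.9 to 49.1 TPM in IL-10 positive and 45.3 to 56.0 TPM in IL-10 negative cells, and Tnfsf8 was not called (-0.21 ± 0.11, adjusted p = 0.204).

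Markers of naive T cells were lower in IL-10 positive cells of all 5 cultures, the pTh17 culture included. Their summed level was 1938.4 to 2012.3 CPM in IL-10 positive and 4627.8 to 4668.0 CPM in IL-10 negative Th1 libraries, and 1203.9 to 1273.7 CPM in IL-10 positive and 3168.5 to 3307.4 CPM in IL-10 negative pTh17 libraries. All 6 of these markers had counts in every group. The part of less activated cells in the Tnfsf8 result was not tested.

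Fasl encodes Fas ligand, with which cytotoxic and Th1 cells trigger apoptosis. It was higher in IL-10 positive cells of the Th1 and Tr1 cultures and lower in those of Th17. Th1 libraries had 58.8, 60.8 and 70.8 TPM in IL-10 positive cells, against 25.2, 20.2 and 26.9 TPM in IL-10 negative cells. All positive libraries lay above all negative ones (1.42 ± 0.16, edgeR adjusted p = 2.47e-09).

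Tr1 libraries had 10.9, 14 and 8.17 TPM of Fasl in IL-10 positive and 4.09, 6.79 and 3.38 TPM in IL-10 negative cells, with no overlap (1.35 ± 0.26, edgeR adjusted p = 7.8e-05). Both calls held without each library. In Th17 cells Fasl was near the limit of detection, with 7 counts over 3 IL-10 positive and 15 counts over 3 IL-10 negative libraries. The Th17 fold (-1.76 ± 0.69, adjusted p = 0.0287) lost its call without IL-10 positive or negative replicate 10 (adjusted p = 0.0969 and 0.095), when IL-10 negative replicate 11 was left out (adjusted p = 0.0883), with counts thinned to 1 depth (adjusted p = 0.116) and in a fit of the 6 libraries (adjusted p = 0.0687). In Th2 cells, at 9.83 TPM in IL-10 positive and 12.1 TPM in IL-10 negative cells on average, and in pTh17 cells, at 0.903 TPM in IL-10 positive and 1.75 TPM in IL-10 negative cells, it was not called.

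Markers of other cytotoxic cells were higher in the IL-10 positive cells of Th1 and Tr1 cultures, as Fasl was. The summed level of 6 natural killer (NK) cell markers was 82.5 to 85.8 CPM in IL-10 positive and 7.95 to 8.53 CPM in IL-10 negative Th1 cells, and 60.4 to 69.1 CPM in IL-10 positive and 5.69 to 6.50 CPM in IL-10 negative Tr1 cells. Nearly all of it was Klrk1, an activating receptor that T cells can also carry, at 82.4 CPM in Th1 IL-10 positive and 61.9 CPM in Tr1 IL-10 positive cells. Ncr1, Klrb1c, Klre1, Klra8 and Eomes were each at or under 0.644 CPM in those 2 groups, with Ncr1 at 0 in Th1 IL-10 positive cells and Klre1 at 0 in Tr1 IL-10 positive cells. The CD8 genes Cd8a and Cd8b1 summed to 30.3 to 36.5 CPM in IL-10 positive and 20.0 to 27.6 CPM in IL-10 negative Th1 cells, and to 42.7 to 51.4 CPM in IL-10 positive and 23.7 to 27.3 CPM in IL-10 negative Tr1 cells. In Th17 and pTh17 cells the NK sum was also higher in the IL-10 positive compartment, where Fasl was not higher, at 2.24 to 3.18 CPM in IL-10 positive and 1.06 to 1.39 CPM in IL-10 negative Th17 cells and 3.56 to 5.58 CPM in IL-10 positive and 0.26 to 1.53 CPM in IL-10 negative pTh17 cells. In Th2 cells the CD8 sum was 17 to 18.8 CPM in IL-10 positive and 9.41 to 12.2 CPM in IL-10 negative libraries, where Fasl was not called. The sort took cells positive for CD4 and the T cell receptor. The part of NK and CD8 T cells in the Fasl result was not tested.

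Tnfsf10 encodes TRAIL, the other death ligand of the set. In Th1 cells it was higher in the IL-10 positive compartment, at 12.9, 11.1 and 10.7 TPM, against 8.23, 8.73 and 9.16 TPM in IL-10 negative cells. These libraries did not overlap (0.44 ± 0.14, edgeR adjusted p = 0.00872), though the call was lost without IL-10 positive replicate 4 (adjusted p = 0.0689). In Th17 cells the direction was the opposite, at 3.03, 3.10 and 2.87 TPM in IL-10 positive and 6.01, 4.80 and 6.04 TPM in IL-10 negative cells. The Th17 difference (-0.75 ± 0.17, edgeR adjusted p = 0.000348) held without each library. In Th2, pTh17 and Tr1 cells the compartments overlapped, and the log2 fold changes of -0.16, -0.15 and -0.13 were not called.

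Tnfsf14 encodes LIGHT, a costimulator that engages HVEM (Tnfrsf14) and the lymphotoxin beta receptor. It was higher in IL-10 positive cells of Th17 and Tr1 cultures and lower in those of Th1 and pTh17. In Th1 cells it had 0.26, 0.42 and 1.39 TPM in the IL-10 positive and 5.65, 2.61 and 3.75 TPM in the IL-10 negative compartment. Positive replicate 6 was the highest of the positive libraries, and all 3 lay below the negative ones (-2.44 ± 0.43, edgeR adjusted p = 1.07e-05; -3.36 without that replicate).

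Th17 cells had 3.54, 3.45 and 4.81 TPM of Tnfsf14 in the IL-10 positive and 2.18, 1.19 and 0 TPM in the IL-10 negative compartment. The direction was opposite to that in Th1, and the groups did not overlap (1.93 ± 0.42, edgeR adjusted p = 0.000157; 2.86 without IL-10 negative replicate 10). Tr1 levels were low throughout, at 1.5, 1.82 and 2.37 TPM in IL-10 positive and 0.44, 0.64 and 0.72 TPM in IL-10 negative cells. The Tr1 call (1.68 ± 0.62, adjusted p = 0.0319) was lost without any 1 of 5 libraries, IL-10 positive replicates 17 and 18 and IL-10 negative replicates 16, 17 and 18, at adjusted p from 0.0541 to 0.129, and in a fit of the 6 libraries (adjusted p = 0.0632).

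In pTh17 cells, where Tnfsf14 was most abundant, it had 25.4, 22.3 and 26.4 TPM in IL-10 positive and 38.7, 33.5 and 33.5 TPM in IL-10 negative cells. The groups did not overlap (-0.59 ± 0.18, edgeR adjusted p = 0.0171). That call was lost without IL-10 negative replicate 13 (adjusted p = 0.0901) or IL-10 positive replicate 14 (adjusted p = 0.0819) and with thinned counts (adjusted p = 0.0568). Th2 cells had similar levels, 22.2 TPM in IL-10 positive and 20.7 TPM in IL-10 negative cells on average, and overlapping libraries (0.09 ± 0.18, adjusted p = 0.773).

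Cd40lg encodes CD40 ligand, through which helper T cells activate B cells and dendritic cells. In Tr1 cells it was 4.50-fold lower in the IL-10 positive compartment, at 8.11, 8.11 and 7.61 TPM, against 38.8, 39.5 and 35.5 TPM in IL-10 negative cells. The replicates of each compartment lay close together and the gap between them was wide (-2.17 ± 0.17, edgeR adjusted p = 5.21e-13). The call held without each library, and the Tr1 IL-10 positive group was the lowest of the 10 groups. In Th17 cells Cd40lg was higher in the IL-10 positive compartment, at 15.7, 25.9 and 22.9 TPM, against 18.9, 18.1 and 14.7 TPM in IL-10 negative cells. These libraries overlapped, and the call (0.46 ± 0.15, edgeR adjusted p = 0.00683) was lost without IL-10 positive replicate 11 (adjusted p = 0.0839) or IL-10 negative replicate 12 (adjusted p = 0.0666). Th1, Th2 and pTh17 cells showed log2 fold changes of 0.19, -0.27 and -0.18, none called. In Th2 the adjusted p was 0.0565, and Cd40lg was called there in a fit of the 6 libraries (-0.30, adjusted p = 0.0248), in DESeq2 (-0.28, adjusted p = 0.0466) and without Th2 IL-10 negative replicate 8, Th17 IL-10 positive replicate 10 or Th17 IL-10 positive replicate 11.

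Tnfsf11, which encodes RANKL, was scarce everywhere. It was most abundant in Th2 cells, at 2.91, 2.70 and 3.38 TPM in the IL-10 positive and 4.44, 5.44 and 1.79 TPM in the IL-10 negative compartment, which overlapped. Th1 cells held 2 counts over 3 IL-10 positive libraries and 4 counts over 3 IL-10 negative ones. No culture gave a called difference. In Tr1 cells 6 counts in IL-10 positive libraries stood against 1 count in IL-10 negative libraries, a depth-scaled ratio of 7.24 whose 95% interval, for counting error only, ran from 0.878 to 333. In Th17 cells (1.55 ± 0.75, edgeR adjusted p = 0.0756) Tnfsf11 was called only without IL-10 positive replicate 10 (adjusted p = 0.0344) or 12 (adjusted p = 0.0317), among the 30 libraries left out.

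Cd70, the ligand of CD27, did not pass the filter on low counts. It stood at 1.72, 2.75 and 2.86 TPM in pTh17 IL-10 positive cells, against 0, 0 and 0.53 TPM in pTh17 IL-10 negative cells. Every positive library lay above every negative one, with 22 counts in the positive and 2 in the negative group, a depth-scaled ratio of 12.2 (95% interval 3.01 to 107.0, counting error only). In a fit without the filter the adjusted p of this difference was 0.116. The same fit called Cd70 higher in pTh17 than in Th17 IL-10 positive cells (edgeR adjusted p = 0.00134). The Th17 group there had 0 counts, so that no fold is given. Both Th1, both Tr1, the Th17 IL-10 positive and the Th2 IL-10 negative groups had 0 counts of Cd70, which allows up to 0.0949 to 0.199 CPM by the limit of 3 counts. The other 2 groups, Th2 IL-10 positive and Th17 IL-10 negative, had 1 and 2 counts.

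Markers of B cells, which can also make CD70, moved with Cd70 in pTh17 cultures. The summed level of 13 such markers was 237.6 to 322.2 CPM in pTh17 IL-10 positive and 111.8 to 122.2 CPM in pTh17 IL-10 negative libraries. All 13 had counts in the positive group, with Cd79a at 10.6 ± 4.6 CPM in IL-10 positive and 0.780 CPM in IL-10 negative cells (SD, n = 3). The sum was lower in the other 8 groups, between 7.54 and 66.1 CPM. Whether B cells carried the Cd70 counts was not tested.

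Averaged over the 5 cultures, 2 ligands were called higher in IL-10 positive cells and 3 lower, against 29.6% and 28.2% of all tested genes. Tnf (0.71 ± 0.08, edgeR adjusted p = 4.38e-10) and Lta (0.72 ± 0.16, adjusted p = 0.000152) were the 2 higher ones. Tnfsf8 (-1.19 ± 0.06, adjusted p = 1.67e-20) and Cd40lg (-0.39 ± 0.06, adjusted p = 4.33e-07) were lower, and so, by a small amount, was Ltb (-0.08 ± 0.03, adjusted p = 0.0405). The Ltb call was lost without any 1 of 15 libraries (adjusted p over the 30 fits from 0.0132 to 0.104) and under 3 other settings. Cd40lg was called in opposite directions in Tr1 and Th17 cells, so its mean describes neither. The fold between compartments differed over the 5 cultures for 7 of the 9 tested ligands, beside 60.7% of all tested genes, by a test of equality of the 5 differences. The exceptions were Ltb (edgeR adjusted p = 0.116) and Tnfsf11 (adjusted p = 0.105), and the smallest p was that of Tnfsf8 (2.78e-15), whose log2 fold change ranged from -2.84 in Th1 to -0.21 in pTh17.

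Set against each other within a compartment, the cultures differed in every tested ligand. The test of any difference among 5 cultures called 9 of 9 in IL-10 positive cells and 9 of 9 in IL-10 negative cells, where 92.2% and 88.2% of all tested genes were called, so that the ligands were near the background. The sizes are given for 3 contrasts.

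**Figure D3:**
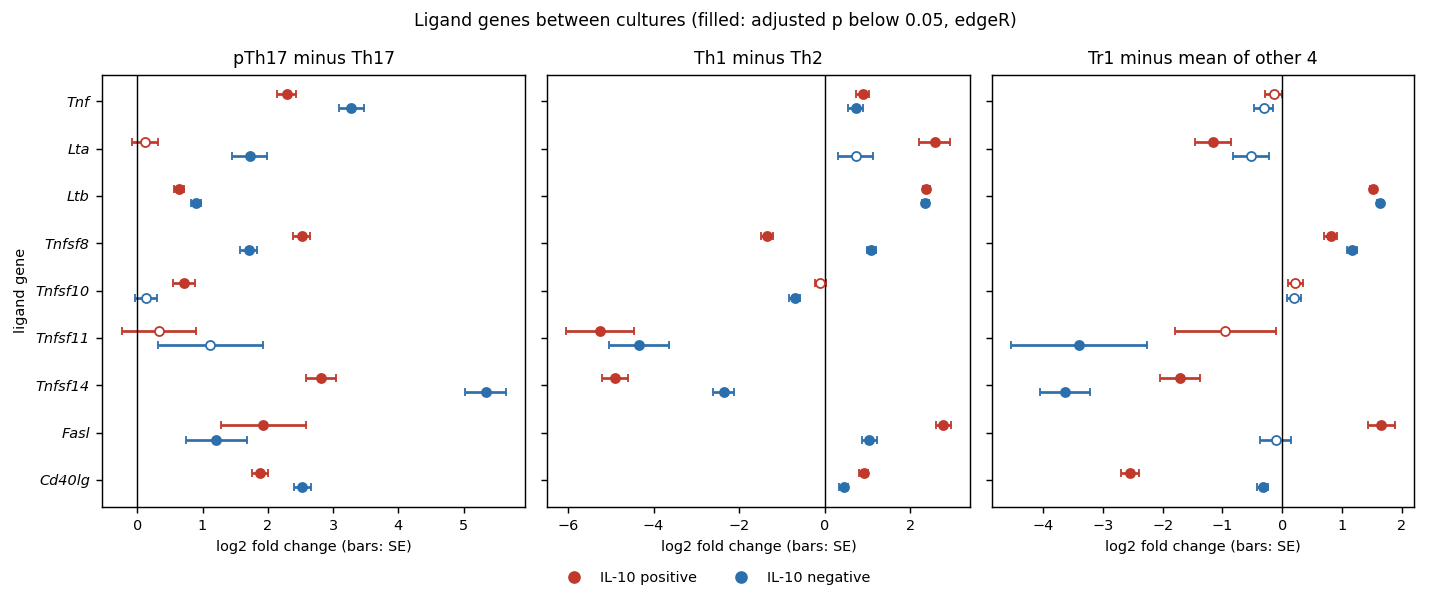
Log2 fold change (x axis, with standard error bars) of 9 ligand genes (y axis) for pTh17 minus Th17, Th1 minus Th2, and Tr1 minus the mean of the other 4 cultures, within IL-10 positive cells (red, above) and within IL-10 negative cells (blue, below). Filled points have an adjusted p below 0.05 in edgeR's quasi-likelihood test. In the pTh17 panel all points lie right of 0. In the Th1 panel Tnfsf10, Tnfsf11 and Tnfsf14 lie left of it in both compartments, with Tnfsf10 not called in IL-10 positive cells.

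Most tested ligands were higher in pTh17 than in Th17 cultures. In IL-10 positive cells 7 ligands were called higher and 0 lower, against 27.8% and 28.9% of all tested genes, and in IL-10 negative cells also 7 and 0, against 31.1% and 28.9%. The median log2 fold change of the 9 tested ligands was 1.88 in IL-10 positive and 1.71 in IL-10 negative cells, beside 0.00 and -0.01 over all tested genes. Tnf was 4.88-fold higher in pTh17 than in Th17 IL-10 positive cells (2.29 ± 0.15, edgeR adjusted p = 3.87e-16) and 9.72-fold higher in the IL-10 negative cells (3.28 ± 0.19, adjusted p = 1.91e-17). Tnfsf14 differed most, by 7.04-fold in IL-10 positive cells (2.82 ± 0.23) and 40.4-fold in IL-10 negative cells (5.34 ± 0.31), where the Th17 libraries held 2.18, 1.19 and 0 TPM. Without Th17 IL-10 negative replicate 10 that value was 6.27, and without replicate 12 it was 4.75. Tnfsf8 and Cd40lg were 5.74-fold and 3.69-fold higher in IL-10 positive pTh17 cells and 3.27-fold and 5.77-fold higher in IL-10 negative ones.

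Markers of other cells and states moved with this contrast. B cell markers summed to 237.6 to 322.2 CPM in pTh17 and 20.9 to 25.2 CPM in Th17 IL-10 positive cells, and to 111.8 to 122.2 CPM in pTh17 and 7.54 to 10.3 CPM in Th17 IL-10 negative cells. Most of the pTh17 IL-10 negative sum was H2-Ab1, at 106.8 CPM, against 1.63 CPM in Th17 IL-10 negative cells. Cd79a was at 10.6 CPM in pTh17 and 0.344 CPM in Th17 IL-10 positive cells. Among IL-10 negative cells it was at 0.780 CPM in pTh17 and 1.1 CPM in Th17. Naive T cell markers summed to 1203.9 to 1273.7 CPM in pTh17 and 2386.1 to 2667.7 CPM in Th17 IL-10 positive cells, and to 3168.5 to 3307.4 CPM in pTh17 and 6861.9 to 6991.0 CPM in Th17 IL-10 negative cells. Their part in these differences was not tested.

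Lta did not follow this contrast in both compartments. Its log2 fold change between pTh17 and Th17 was 0.12 ± 0.20 in IL-10 positive cells (edgeR adjusted p = 0.631) and 1.72 ± 0.27 in IL-10 negative cells (adjusted p = 7.3e-07). For Tnfsf10 the call was in IL-10 positive cells (0.72 ± 0.17, adjusted p = 0.00043) and not in IL-10 negative cells (0.13 ± 0.17, adjusted p = 0.53). Whether these contrasts differ between compartments was not tested. Fasl was called in both (1.93 ± 0.65, adjusted p = 0.0106, and 1.21 ± 0.47, adjusted p = 0.0252) at few counts. Its IL-10 negative call was lost without Th17 replicate 12 (adjusted p = 0.118), pTh17 replicate 13 (adjusted p = 0.0997) or pTh17 replicate 14 (adjusted p = 0.0789), and with thinned counts (adjusted p = 0.207).

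Th1 and Th2 cells divided the ligands between them. In each compartment 5 ligands were called higher in Th1 and 3 lower, against 31.3% and 32.2% of all tested genes in IL-10 positive and 33.8% and 31.1% in IL-10 negative cells. Fasl (6.82-fold in IL-10 positive and 2.05-fold in IL-10 negative cells), Ltb (5.16-fold and 5.09-fold), Tnf (1.85-fold and 1.64-fold) and Cd40lg (1.87-fold and 1.36-fold) were higher in Th1 in both compartments. Lta was called higher in Th1 among IL-10 positive cells (2.57 ± 0.36, edgeR adjusted p = 7.6e-08), and Tnfsf10 lower in Th1 among IL-10 negative cells (-0.70 ± 0.13, adjusted p = 1.94e-05). Tnfsf14 was lower in Th1 in both, by 29.8-fold (-4.90 ± 0.31, edgeR adjusted p = 7.71e-17; -5.82 without Th1 IL-10 positive replicate 6) and 5.14-fold. Tnfsf11 was also lower in both, with 2 counts in Th1 IL-10 positive libraries against 133 in Th2 IL-10 positive libraries, a depth-scaled ratio of 0.0202 (95% interval 0.00243 to 0.0746, counting error only). In IL-10 negative cells its log2 fold change was -4.34 ± 0.71 (adjusted p = 1.56e-06; -5.74 without Th1 IL-10 negative replicate 4). Tnfsf8 was lower in Th1 than in Th2 among IL-10 positive cells (-1.35 ± 0.13, adjusted p = 2.64e-11) and higher in Th1 among IL-10 negative cells (1.09 ± 0.11, adjusted p = 4.61e-11).

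Tr1 cells, set against the mean of the other 4 cultures, had more Ltb and Tnfsf8 and less Cd40lg and Tnfsf14. Single cultures could go further than Tr1. Among IL-10 positive cells Tnfsf8 was at 46.0 TPM in pTh17 and 31.8 TPM in Tr1, and Tnfsf14 at 0.69 TPM in Th1 and 1.9 TPM in Tr1. Among IL-10 negative cells Cd40lg was at 17.2 TPM in Th17 and 37.9 TPM in Tr1. In IL-10 positive cells 3 ligands were called higher and 3 lower, against 33.3% and 32.3% of all tested genes, and in IL-10 negative cells 2 and 3, against 27.4% and 30.2%. Ltb was 2.87-fold higher in IL-10 positive cells (1.52 ± 0.05, edgeR adjusted p = 2.36e-25) and 3.13-fold higher in IL-10 negative cells (1.64 ± 0.05, adjusted p = 1.8e-26). Cd40lg was 5.85-fold lower in IL-10 positive cells (-2.55 ± 0.15, adjusted p = 3.77e-18) and 1.26-fold lower in IL-10 negative cells (-0.33 ± 0.10, adjusted p = 0.00511). Fasl was called higher in IL-10 positive cells (1.66 ± 0.23, adjusted p = 4.45e-08) and not called in IL-10 negative cells (-0.11 ± 0.26, adjusted p = 0.756). The IL-10 positive value is set against cultures far apart in Fasl, at 63.5 TPM in Th1, 9.83 TPM in Th2, 0.903 TPM in pTh17 and 0.25 TPM in Th17. Tr1 IL-10 positive libraries all lay below those of Th1 in Fasl and overlapped those of Th2. Lta was lower in Tr1 among IL-10 positive cells (-1.16 ± 0.30, adjusted p = 0.000878; -1.76 without Tr1 replicate 18). In the IL-10 negative contrast Tnfsf11 was called lower on 1 count in Tr1 libraries, and without Tr1 replicate 18 (adjusted p = 0.0697) or with thinned counts (adjusted p = 0.101) it was not.

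Of 8 further ligands of the family, 4 passed the filter on low counts: Tnfsf9, Tnfsf4, Tnfsf13b and Tnfsf15. Tnfsf9 encodes 4-1BB ligand, a costimulator of T cells, and was the most abundant of them. It was higher in IL-10 positive cells of 4 cultures and by 0.87 ± 0.09 on the log2 scale on average (edgeR adjusted p = 2.79e-10). Th1 libraries had 37.8, 40.2 and 43.4 TPM in IL-10 positive cells, against 11.8, 16.4 and 15.5 TPM in IL-10 negative cells, a clear separation (1.49 ± 0.16, adjusted p = 6.55e-10). In pTh17 cells Tnfsf9 stood at 77.6, 70.5 and 88.2 TPM in IL-10 positive and 51.1, 47.1 and 59.1 TPM in IL-10 negative cells (0.50 ± 0.13, adjusted p = 0.00468; adjusted p = 0.0534 without IL-10 negative replicate 14). Th17 (0.85 ± 0.19) and Tr1 (1.22 ± 0.34) were called higher as well. Of its neighbours, Tnfsf14 was called higher in Th17 and Tr1, as Tnfsf9 was, and lower in Th1 and pTh17, while Cd70 was not tested. A long non-coding gene, Gm11110, is annotated antisense to Tnfsf9, and their reads cannot be told apart without strand.

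Tnfsf4 encodes OX40 ligand, another costimulator. In Th1 cells it had 1.36, 1.58 and 1.76 TPM in the IL-10 positive and 11.9, 10.6 and 12 TPM in the IL-10 negative compartment. These were far apart (-2.83 ± 0.37, edgeR adjusted p = 4.77e-08). It was also lower in IL-10 positive Tr1 cells (-1.66 ± 0.60, adjusted p = 0.0283), a call lost when Tr1 IL-10 positive replicate 17 or 18 or IL-10 negative replicate 17 was left out, and in a fit of the 6 libraries (adjusted p from 0.0699 to 0.122). Tnfsf15, or TL1A, was higher in IL-10 positive pTh17 cells at very low levels (0.360 TPM in IL-10 positive and 0.05 TPM in IL-10 negative cells), and the call (2.66 ± 0.78, adjusted p = 0.012) was lost without pTh17 IL-10 positive replicate 14 or IL-10 negative replicate 15 and with thinned counts (adjusted p from 0.0541 to 0.094). B cell markers were higher there too, as given for Cd70. Tnfsf13b, or BAFF, was highest in Th2 cells (2.91 TPM in IL-10 positive and 2.98 TPM in IL-10 negative cells) and called in no culture. Tnfsf12, Tnfsf13, Tnfsf18 and Eda stayed at or under 1.55 TPM in group means and were not tested.

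**Figure D4:**
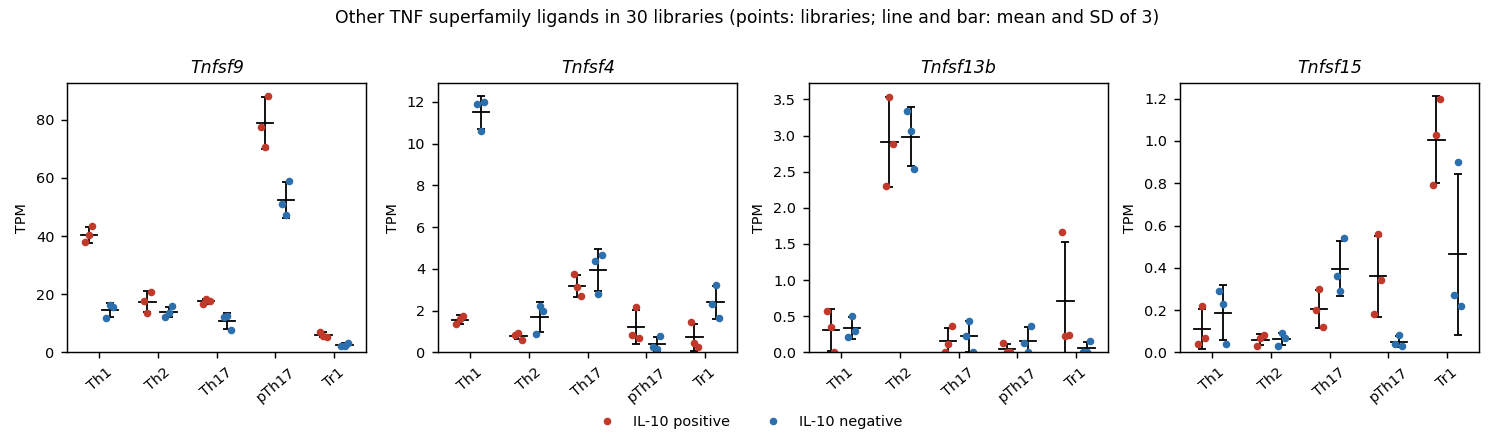
Level in TPM (y axis, linear, own scale per panel) of the 4 further TNF superfamily ligands that passed the filter, in the 5 cultures (x axis), IL-10 positive cells in red at the left of each pair and IL-10 negative cells in blue at the right. Points are libraries, and lines and bars are the mean and SD of 3. Tnfsf9 stands highest in pTh17 IL-10 positive cells (70.5 to 88.2 TPM) and Tnfsf4 in Th1 IL-10 negative cells (10.6 to 12 TPM).

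Of 14 genes listed as receptors of the 10 ligands, 13 were tested. In the mean over cultures 3 were called higher and 6 lower, against 29.6% and 28.2% of all tested genes. The median log2 fold change was 0.08 over the 13 tested receptors and -0.24 over the 11 with counts in every group, the opposite sign, beside 0.00 over all tested genes. The 2 left out of that median, Cd40 and Tnfrsf11b, had groups at 0. Tnfrsf8 encodes CD30, the receptor of CD30 ligand, and it was higher in IL-10 positive cells of 4 cultures, of which Th1, Th2 and Th17 had Tnfsf8 itself called lower. It averaged 73.6 ± 8.72 CPM in IL-10 positive and 12.6 ± 2.17 CPM in IL-10 negative Th2 cells (2.54 ± 0.16, edgeR adjusted p = 1.49e-15) and 68.1 ± 5.76 CPM in IL-10 positive and 19.0 ± 3.65 CPM in IL-10 negative pTh17 cells (1.84 ± 0.16, adjusted p = 1.65e-11; SD, n = 3 each). In Th17 cells it was 6.38 ± 1.15 CPM in IL-10 positive and 0.831 ± 0.683 CPM in IL-10 negative cells (2.91 ± 0.37, adjusted p = 1.52e-08), and Th1 cells also passed the test (2.24 ± 0.60, adjusted p = 0.0022). In Tr1 cells Tnfrsf8 was near 0, at 0.0739 CPM in IL-10 positive and 0.135 CPM in IL-10 negative cells. The mean over cultures (1.79 ± 0.69, adjusted p = 0.0252) rests partly on that group, and was not called with thinned counts or without Tr1 IL-10 positive replicate 18.

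Tnfrsf1b, which encodes TNF receptor 2, was higher in IL-10 positive cells of Th1 (1.40 ± 0.08), Th2 (0.97 ± 0.08), pTh17 (0.75 ± 0.09) and Tr1 (1.32 ± 0.11) cultures. It was not called in Th17 (0.07 ± 0.09, edgeR adjusted p = 0.533), and Tnfrsf1a, the death-domain receptor of TNF, was called in no culture. Tnfrsf14, or HVEM, the receptor of LIGHT, was lower in IL-10 positive cells of all 5 cultures, from -1.43 ± 0.13 in Th17 to -0.36 ± 0.13 in Tr1. Its calls in Th2 (adjusted p = 0.0356) and Tr1 (adjusted p = 0.0318) were each lost without several libraries or under another setting (adjusted p from 0.0524 to 0.188 in Th2, and from 0.0603 to 0.153 in Tr1). Fas, the receptor of FasL, was lower in IL-10 positive cells of Th1 (-0.48), Th2 (-0.99), Th17 (-1.09) and pTh17 (-0.51) cultures and higher in those of Tr1 (0.41 ± 0.09, adjusted p = 0.000484). The mean over cultures was -0.53 ± 0.04 for Fas and -0.44 ± 0.03 for Tnfrsf26, another gene of the receptor list. Tnfrsf11b, the decoy of RANKL, was at 0 in some groups, so that no fold is given; it reached 3.52 ± 1.11 CPM in pTh17 IL-10 positive cells and 0.367 ± 0.316 CPM in pTh17 IL-10 negative cells.

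**Figure D5:**
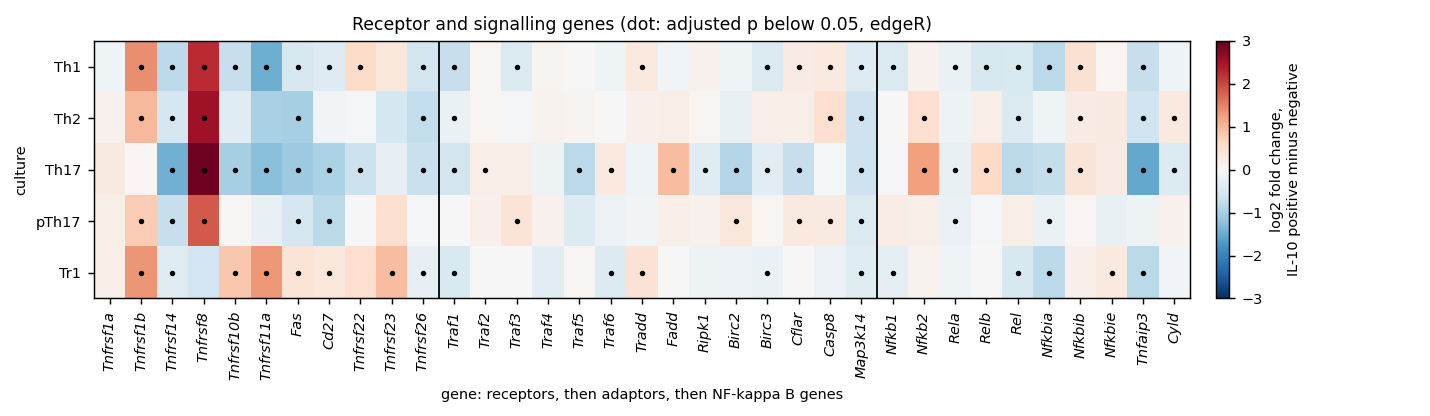
Log2 fold change of IL-10 positive minus negative cells (colour, red higher in IL-10 positive cells) for receptors, adaptors and NF-kappa B genes (x axis, groups divided by black lines) in the 5 cultures (y axis). Dots mark an adjusted p below 0.05 in edgeR's quasi-likelihood test; Cd40 and Tnfrsf11b, which had groups at 0, are left out. Tnfrsf8 is the reddest column in 4 cultures, and Tnfrsf14 and Map3k14 are blue with a dot in all 5.

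Of 14 receptor adaptors and death signalling genes, 4 were called higher and 5 lower in the mean over cultures, against 29.6% and 28.2% of all tested genes (median -0.04, beside 0.00 over all tested genes). Map3k14, the kinase NIK of the alternative NF-kappa B pathway, was lower in all 5 cultures and by -0.49 ± 0.05 on average (edgeR adjusted p = 4.33e-10). Traf1 (-0.37 ± 0.03) and Traf5 (-0.22 ± 0.08) were the next lowest, and Fadd (0.24 ± 0.07), Casp8 (0.17 ± 0.03) and Tradd (0.13 ± 0.05) the highest. The Traf5 call was lost with thinned counts (adjusted p = 0.0977), and that of Tradd without any 1 of 3 libraries and with no filter on low counts (adjusted p from 0.0528 to 0.0761).

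Of 10 NF-kappa B subunits and feedback genes, 3 were called higher and 5 lower in the mean, against the same 29.6% and 28.2% (median -0.07). The inhibitors Tnfaip3 (-0.76 ± 0.05, edgeR adjusted p = 3.05e-16) and Nfkbia (-0.53 ± 0.03, adjusted p = 9.33e-18) were lower, as was the subunit Rel (-0.40 ± 0.05), while Nfkb2 (0.43 ± 0.04), Nfkbib (0.26 ± 0.04) and Nfkbie (0.13 ± 0.05) were higher. The Nfkbie call was lost without any 1 of 11 libraries, with thinned counts and without the filter (adjusted p from 0.0504 to 0.147). Among 9 genes of ligand shedding and mRNA decay, 4 were called higher and 4 lower, against 29.6% and 28.2% of all tested genes (median -0.11). Furin, a protease that processes several precursor proteins, rose by 1.32 ± 0.03 on average (adjusted p = 1.37e-28) and in every culture but Tr1 (0.02 ± 0.11). Rhbdf2 (0.61 ± 0.07) and Adam17 (0.16 ± 0.03), partners in the cleavage of TNF from the cell surface, were also higher. The 3 listed genes of the Zfp36 family, whose proteins speed the decay of Tnf mRNA and others, were lower: Zfp36 (-0.53 ± 0.05), Zfp36l1 (-0.44 ± 0.03) and Zfp36l2 (-0.39 ± 0.04). Of 10 factors of T cell activation that act on ligand promoters, 1 was called higher, Nfatc2 (0.42 ± 0.04), and 9 lower, against 29.6% and 28.2% of all tested genes (median -0.26), with Fos (-0.82 ± 0.06), Egr3 (-0.72 ± 0.22) and Nr4a1 (-0.62 ± 0.03) the lowest. The mean does not describe every culture: 5 were called higher and 3 lower in Tr1 (median 0.16) and 4 higher and 2 lower in Th2 (median 0.01), against 1 and 8 in Th1, 0 and 8 in Th17 and 1 and 5 in pTh17. Nr4a1 was lower in IL-10 positive cells of Th1, Th2, Th17 and pTh17 cultures and higher in those of Tr1 (0.42 ± 0.06, adjusted p = 2.81e-06).

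Across the 10 group means of log2 CPM, the genes whose pattern was most like each ligand were found among 8739 genes of at least 5 CPM. For Tnf they were Rilpl2, Uck2 and Clybl (Pearson's r of 0.985, 0.973 and 0.962), and for Lta they were Slc4a11, Pfn2 and Il23r (0.948, 0.940 and 0.935). For Ltb they were Bend4, Txnip and Paqr7 (0.974, 0.963 and 0.961), and for Fasl they were Cd3g, Unc13d and Cib1 (0.969, 0.965 and 0.963). Cetn2 stood nearest to Tnfsf10 (0.974), Pradc1 to Tnfsf11 (0.969), Pick1 to Tnfsf14 (0.959), Tars2 to Cd40lg (0.914) and Rps7 to Tnfsf8 (0.903). With 10 points and so many candidate genes, such values are a description of these groups only, and the pairs of compartments share a culture.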

How the data were processed

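Per the labels' protocols, libraries were made from 2000 lysed cells each by an adaptation of SMART-Seq2, which amplifies full transcripts without molecular identifiers or strand. The authors deposited expected counts per gene and, in the same tables, TPM, both estimated by RSEM on mm10, per the submitters' processing notes; its version is not stated there. Reads shared between similar genes are apportioned by a model, so values of close copies are uncertain.

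The rounded expected counts were filtered on low values (filterByExpr), scaled by TMM and tested with glmQLFit and glmQLFTest (edgeR 4.0.16, R 4.3.3) on 30 libraries with 1 mean per group and no covariate, which was tested on simulated data. Each standard error is the fitted difference divided by the root of its F statistic; log CPM used a prior count of 2. Alternatives were median-of-ratios size factors, no filter, DESeq2 1.42.0, thinned counts, fits of 6 libraries, a replicate block and each library left out. Named genes were the 10 ligands, Il10, the 3 genes most like each ligand, the further ligands and, per list, up to 3 called genes at each end of the mean comparison; genes beyond these were named after their values were seen. Members and lists were chosen with earlier results of these data known. Intervals and limits cover counting error only. The value of 1 marker gene is not reported here.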

Additional observations from a re-analysis of the deposited data

Results flagged for a closer look

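For 7 ligands the difference between IL-10 positive and negative cells was not the same in the 5 cultures, by edgeR's quasi-likelihood test of equality. Tnfsf8 had the smallest adjusted p (2.78e-15), with log2 fold changes below 0 in all 5 cultures but of unequal size, from -2.84 in Th1 to -0.21 in pTh17. Cd40lg (9.18e-12) was lower in IL-10 positive Tr1 cells (-2.17) and higher in those of Th17 (0.46). Fasl (3.06e-08) was higher in IL-10 positive cells of Th1 (1.42) and Tr1 (1.35) and lower in those of Th17 (-1.76). Tnfsf14 (2.71e-07) was lower in IL-10 positive cells of Th1 (-2.44) and pTh17 (-0.59) and higher in those of Th17 (1.93) and Tr1 (1.68). Lta (1.27e-05) ranged from -0.74 in Th2 to 2.32 in Th17, and Tnfsf10 (0.00052) from -0.75 in Th17 to 0.44 in Th1. Tnf (0.00171) lay above 0 in all 5 cultures, from 0.26 in Th2 to 1.52 in Th17. Such a difference is common in these libraries, since 60.7% of all tested genes passed the same test.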

How the results depend on the processing

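Counts of called genes over all tested genes stayed within 1.5 times the reported value under every alternative. The count of called ligands in Th2 was 1, and 2 in a fit of the 6 libraries and in DESeq2; leaving out 1 library gave 0 to 2, and in pTh17, where the count was 3, 1 to 4. The highest group was the same in CPM and TPM for 8 of 10 ligands, all but Lta and Cd40lg. Of the values of single genes under an alternative, 7203 kept direction and side of the threshold, 118 lost and 45 gained a call, and 20 changed sign, in each case from a value that was not called; the cause was not tested. Ltb in Th1 was 0.00 with median-of-ratios size factors and DESeq2 and 0.01 without the filter. With thinned counts Fasl was 0.08 in the mean over cultures and 0.03 in Tr1 minus the other IL-10 negative cultures, Tnfrsf1b was -0.02 in Th17 and Tnfrsf8 0.00 in Tr1. Leaving out 1 library gave, from lowest to highest, -1.85 to 0.13 for Tnfsf11 in Th1, -0.15 to 0.02 for Ltb and -0.25 to 0.01 for Tnfsf10 in Th2, -0.40 to 0.59 for Lta and -0.24 to 0.05 for Tnfsf10 in Tr1, and -0.05 to 0.32 for Tnfsf14 and -0.13 to 0.00 for Fasl in the mean. It gave -0.03 to 1.52 for Tnfsf11 in pTh17 minus Th17 and -0.20 to 0.01 for Tnfsf10 in Th1 minus Th2 (IL-10 positive), -0.40 to 0.09 for Fasl in Tr1 minus the others (IL-10 negative), -0.02 to 0.13 for Tnfrsf1b in Th17 and -3.10 to 2.51 for Tnfrsf8 in Tr1.

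Titles of both compartments of a culture share numbers, but same-numbered libraries did not deviate together (r of their deviations from -0.046 to 0.0546 over 15 pairs, 6 of 15 highest with their own number), so the numbers were not taken to pair samples. A fit with the replicate number as a block called 5467 genes for IL-10 positive minus negative in Th1 and 2322 for IL-10 positive minus negative in pTh17, and added Ltb in pTh17 (-0.17, adjusted p = 0.0417). Low counts limit what could be tested of Cd70, of Tnfsf11 and, in Th17 and pTh17 cells, of Fasl.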
